A study of Mus musculus with 27 samples.

Results

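Transcripts of 10 genes that store, take up, move, export or release iron were measured in macrophages with or without the mitochondrial chaperone TRAP1. The genes were Fth1, Ftl1, Ftl1-ps1, Ncoa4, Tfrc, Steap3, Slc11a1, Slc40a1, Hmox1 and Blvrb, taken by name from a count table of 50559 genes. They were chosen by their levels and fold changes in these same libraries, across cell kind, medium and genotype. Those values are therefore given as a description, with standard errors (SE) and without tests. The question behind the comparisons was how medium conditioned by malignant peripheral nerve sheath tumor cells changes macrophages, and whether TRAP1 takes part in this.

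The cells were bone marrow-derived macrophages of female C57BL/6 mice, aged 3 to 4 months and either wild-type (WT) or TRAP1-deficient (TRAP1 KO). L929-conditioned medium supplied the growth factor for their differentiation. M0 macrophages, called Mφ in the study, were left unpolarized, and M2 macrophages were given IL-4 at 10 ng/mL for 24 h. Each kind was then kept for 48 h in DMEM as control medium or in medium conditioned by a mouse tumor line that lacks Nf1 and p53 (CM). The 8 groups made of cell kind, medium and genotype held 3 batch 1 libraries each, and these 24 libraries carry the report. Nothing in the labels says whether the libraries of a group came from separate mice, so the p-values measure only the spread between these libraries, which may be technical. The TRAP1 deficiency was carried by the mice themselves and the CM came from 1 cultured line.

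Macrophages recycle the iron of old red cells. Heme oxygenase 1, encoded by Hmox1, opens the heme ring and frees its iron, and biliverdin reductase B, encoded by Blvrb, reduces some isomers of biliverdin, the main product being reduced by biliverdin reductase A. Spare iron is held in ferritin, a shell built from heavy (Fth1) and light (Ftl1) chains, and NCOA4 carries ferritin to the lysosome when iron is needed. Transferrin receptor 1 (Tfrc) brings in transferrin-bound iron, the reductase STEAP3 converts it in the endosome, NRAMP1 (Slc11a1) moves metal ions out of the phagosome, and ferroportin (Slc40a1) is the exporter. Several of these transcripts carry an iron-responsive element, a hairpin bound by the iron regulatory proteins when iron is low. Such a hairpin before the coding region holds back translation, and hairpins behind it protect the message from decay.

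The hairpins are shown because they tell which of the 10 transcripts hold this pattern, and where. Transcripts of GENCODE M21 (GRCm38) were searched on the sense strand for a C, then 5 bases, then the loop CAGTGN with a last base other than G, then 5 bases that pair with the first 5, with G to T pairs allowed. Capitals mark the 6 bases of the loop. The 5′ UTR sites were as follows.
Fth1: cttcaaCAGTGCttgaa
Ftl1: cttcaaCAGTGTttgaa
Ftl1-ps1: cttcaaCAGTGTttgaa
Slc40a1: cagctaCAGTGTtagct
Tfrc carried 4 sites, all in the 3′ UTR within its last exon, exon 19.
Tfrc site 1: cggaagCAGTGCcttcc
Tfrc site 2: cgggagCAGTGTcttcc
Tfrc site 3: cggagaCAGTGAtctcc
Tfrc site 4: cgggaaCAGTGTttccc

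The site of Fth1 lies at chr19:9982738-9982754 on the plus strand. That of Ftl1 lies in exon 1 at chr7:45459785-45459801 on the minus strand, and that of Slc40a1 in exon 1 at chr1:45925471-45925487 on the minus strand. Ftl1-ps1, which GENCODE M21 lists as protein-coding, has the same 17 bases as Ftl1 at chr13:74406434-74406450 on the plus strand. The Tfrc sites lie on the plus strand at chr16:32631225-32631241, chr16:32631604-32631620, chr16:32631669-32631685 and chr16:32631716-32631732. Matches were held by 5 of the 10 genes, by 1 of 46 other iron and heme genes (Keap1, in its coding region), and by 222 of 21877 protein-coding genes (1.01%). A match describes letters in a transcript and says nothing about binding in these cells. Ncoa4, Steap3, Slc11a1, Hmox1 and Blvrb held no match to this pattern.

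The 24 batch 1 libraries held between 7037684 and 9089792 counts (median 7872887). Levels are given as CPM, the count scaled to a fixed library size with TMM factors. The assay reads the 3′ ends of transcripts. Trap1 was at 0 counts in all 12 batch 1 TRAP1 KO libraries and between 10.4 and 18.8 CPM in the 12 WT libraries. The macrophage markers (7 of 7 above 10 CPM) summed to between 7829 and 12100 CPM. The 4 markers of an IL-4 response summed to between 681 and 753 CPM in M0 in DMEM, 1171 and 1349 CPM in WT M0 in CM, 2545 and 2665 CPM in KO M0 in CM, and 2629 and 4344 CPM in M2 macrophages. Of these 4, Mrc1 lay between 516 and 3769 CPM over the 24 libraries. Arg1, Retnla and Chil3 fell to 0, 0.108 and 0 CPM in their lowest libraries. The low sums are thus mostly Mrc1 and do not show that all 4 markers moved together. The 8 erythroid markers summed to between 0.127 and 1.76 CPM. Each list of markers of neutrophils, lymphocytes, dendritic cells and fibroblasts or tumor cells, taken alone, summed to at most 19.98 CPM in any library. The hemoglobin genes Hba-a1 and Hba-a2 were at 0 counts throughout. Each of the 24 libraries correlated best with the other libraries of its own group. The 3 batch 2 libraries entered no main value. Those labelled M2 CM KO replicate 4 and M2 DMEM KO replicate 4 correlated at -0.281 and -0.329 with their own groups over 13723 genes, and best with M2 DMEM WT (0.611) and M0 CM KO (0.613). Trap1 was at 0 counts in M2 CM KO replicate 4 and at 2 counts in M2 DMEM KO replicate 4. It was at 252 counts in M0 DMEM WT replicate 4, so Trap1 went with the genotype in each batch 2 label. In libraries of bulk RNA, fewer cells of a type and less RNA per cell cannot be told apart.

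**Figure D1:**
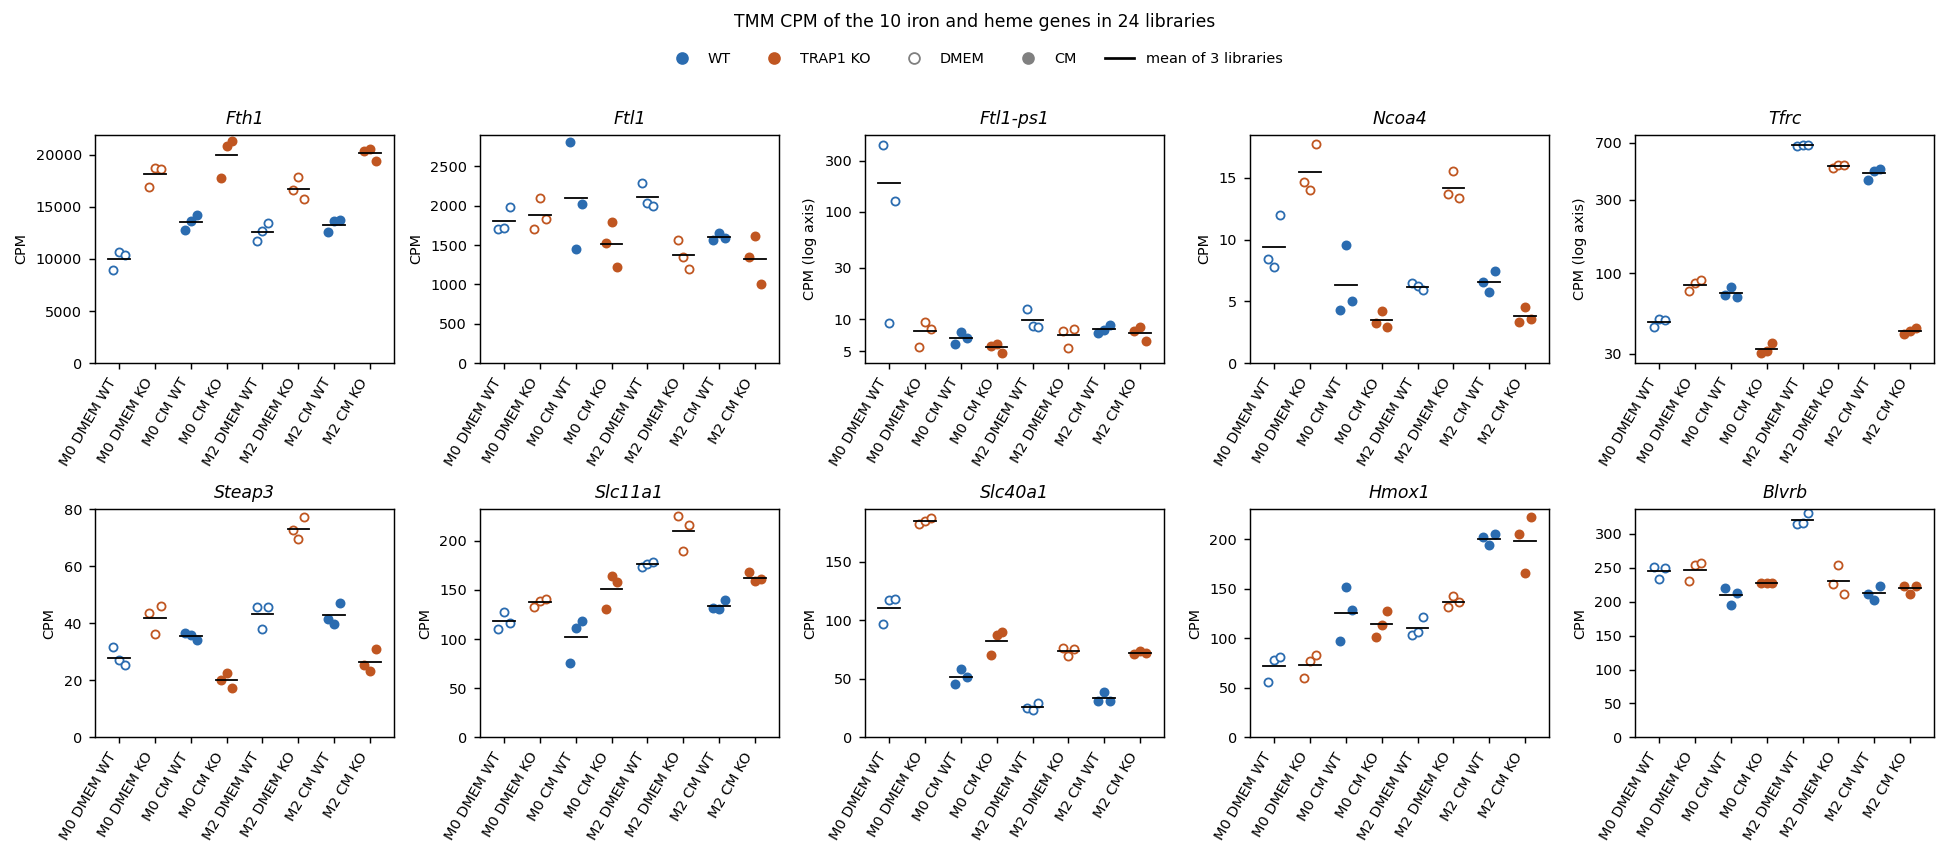
Each panel plots 1 gene, with TMM-scaled CPM on the y axis (log axes for Ftl1-ps1 and Tfrc) and the 8 groups on the x axis. Points are the 3 libraries of a group, open in DMEM and filled in CM, blue for WT and orange for TRAP1 KO, and bars are means. Fth1 and Slc40a1 were higher in KO than in WT in each of the 4 conditions, and Tfrc in M2 macrophages lay between 40.5 and 44.04 CPM in the 3 KO libraries in CM and at 401 CPM or more in the other 9 M2 libraries.

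Fth1 was the most abundant row of the set. Its batch 1 libraries of TRAP1 KO cells stood above those of WT cells in every condition. In M0 macrophages in DMEM the WT libraries read 8976, 10649 and 10376 CPM and the KO libraries 16936, 18713 and 18633 CPM. In M0 macrophages in CM the WT libraries read 12775, 13616 and 14204 CPM and the KO libraries 17756, 20790 and 21301 CPM. The genotypes did not overlap in either medium.

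In M2 macrophages in DMEM the WT libraries read 11721, 12680 and 13399 CPM and the KO libraries 16598, 17880 and 15739 CPM. M2 macrophages in CM read 12586, 13586 and 13697 CPM in WT and 20384, 20577 and 19423 CPM in KO. The log2 fold change of Fth1 from WT to KO was 0.86 (SE 0.0826) in M0 in DMEM, 0.56 (SE 0.0822) in M0 in CM, 0.41 (SE 0.0821) in M2 in DMEM and 0.60 (SE 0.0823) in M2 in CM. The lowest of the 12 KO libraries, at 15739 CPM, was above the highest of the 12 WT libraries, at 14204 CPM. Differences of Fth1 between media lay between 0.08 and 0.44. Its log2 fold change from DMEM to CM was 0.44 (SE 0.0821) in WT M0, 0.14 (SE 0.0820) in KO M0, 0.08 (SE 0.0820) in WT M2 and 0.27 (SE 0.0820) in KO M2, and the groups did not overlap in WT M0 and KO M2. With the batch 2 libraries added the value in KO M2 was -0.014, and the KO remained higher than WT in M2, by 0.55 in DMEM and 0.41 in CM. M2 CM KO replicate 4 of batch 2 read 12982 CPM for Fth1, inside the range of WT M2 in CM.

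Ftl1, the light chain, did not follow Fth1. In M0 macrophages in DMEM its libraries read 1704, 1713 and 1984 CPM in WT and 1706, 2099 and 1833 CPM in KO. In M0 macrophages in CM they read 2812, 1451 and 2016 CPM in WT and 1525, 1793 and 1220 CPM in KO. The first WT library in CM was the highest of all 24, and the genotypes overlapped in both media.

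Ftl1 in M2 macrophages in DMEM read 2291, 2035 and 2001 CPM in WT and 1569, 1354 and 1197 CPM in KO, without overlap, a log2 fold change of -0.62 (SE 0.198). With CM it read 1568, 1656 and 1595 CPM in WT M2, below every WT library in DMEM (-0.39, SE 0.197), and 1350, 1615 and 1004 CPM in KO M2, with overlap between genotypes. In the order of the 8 group means of Ftl1, each neighbor overlapped the next except M0 DMEM WT and M2 CM WT. The ratio of Fth1 counts to Ftl1 counts ranged from 4.54 to 9.38 over the 12 WT libraries and from 8.91 to 19.4 over the 12 KO libraries. In M0 macrophages the ratio ran from 5.23 to 6.22 in WT and from 8.91 to 10.2 in KO in DMEM, and from 4.54 to 9.38 and from 11.6 to 17.5 in CM. In M2 it ran from 5.12 to 6.70 and from 10.6 to 13.2 in DMEM, and from 8.03 to 8.59 and from 12.7 to 19.4 in CM. The genotypes thus did not overlap in any of the 4 conditions in batch 1. With the counts of all Ftl rows summed in place of Ftl1 they did not overlap either, and M2 in DMEM ran from 5.03 to 6.57 in WT and from 8.47 to 12.8 in KO. M2 CM KO replicate 4 of batch 2 held 125038 Fth1 and 19691 Ftl1 counts, a lower ratio than any WT library of M2 in CM. M2 DMEM KO replicate 4 read 2392 CPM for Ftl1, above every WT library of M2 in DMEM. With all 27 libraries the Ftl1 value from WT to KO in M2 in DMEM was -0.39.

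Ftl1-ps1 is a near copy of Ftl1. The transcripts aligned over 910 bases, of which 906 were identical (99.6%). Of the 894 windows of 75 bases in Ftl1, the length of a read, 590 also occur in Ftl1-ps1 (66%), among them 77 of the 226 windows in the last 300 bases, where 3′ reads fall. A read from a shared window fits both transcripts equally, and the authors removed reads with a mapping quality below 20. Counts of Ftl1 and Ftl1-ps1 are thus uncertain as a split of their shared reads.

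**Figure D2:**
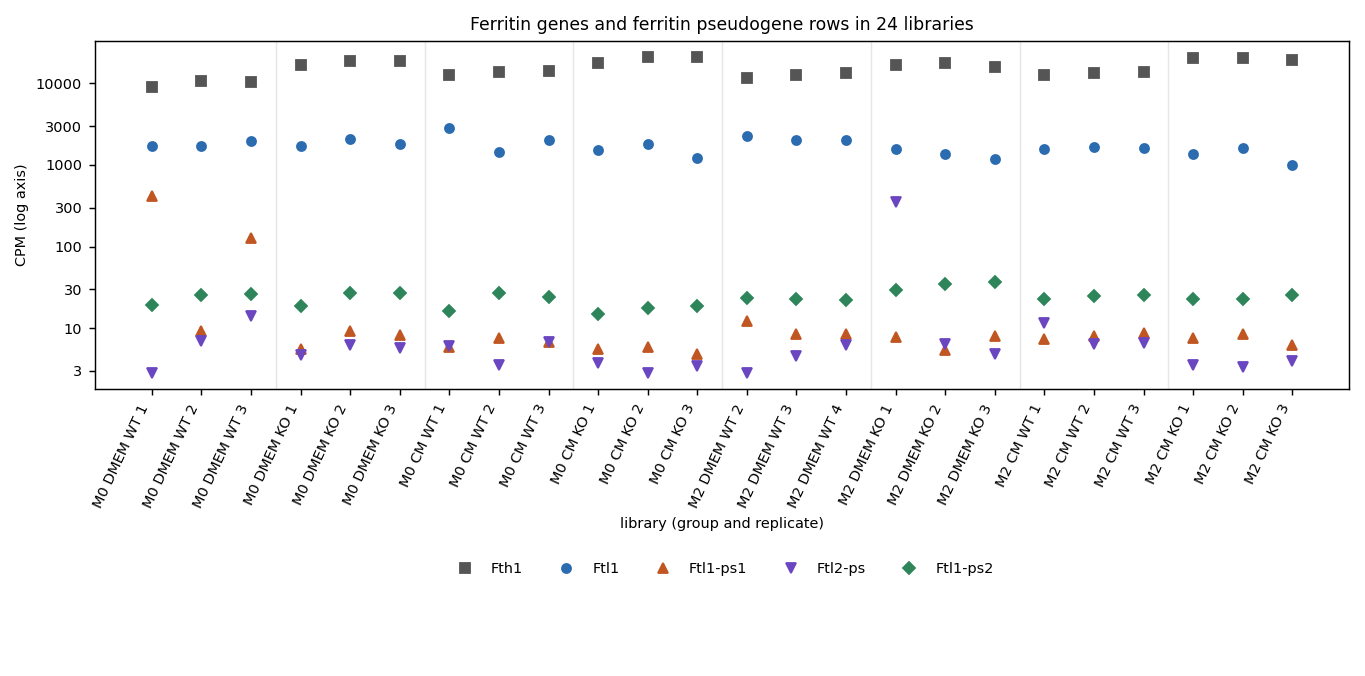
The y axis gives CPM on a log axis and the x axis the 24 libraries by group and replicate. Symbols are Fth1, Ftl1 and 3 ferritin pseudogene rows. Ftl1-ps1 stood above 100 CPM in 2 libraries of M0 DMEM WT (423 and 128 CPM), and Ftl2-ps in 1 library of M2 DMEM KO (353 CPM), while Ftl1 stayed between 1004 and 2812 CPM.

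Ftl1-ps1 read 423, 9.12 and 128 CPM in the libraries of M0 DMEM WT, from 3445, 70 and 1121 counts. In the other 21 libraries it lay between 4.84 and 12.3 CPM. The fitted log2 fold changes of Ftl1-ps1 that include M0 DMEM WT were -4.80 (SE 0.820) for CM, -4.61 (SE 0.817) for the KO and -4.26 (SE 0.799) for M2, and each of them rests on those 2 libraries. Without replicate 1 alone they were -3.36, -3.17 and -2.82. With both left out, the values for M2 and for the difference between the medium responses of the genotypes in M0 changed sign, to 0.10 and -0.05. Ftl2-ps behaved in the same manner in another group. It read 353 CPM (2352 counts) in M2 DMEM KO replicate 1 and at most 14.2 CPM in the other 23 libraries. Ftl2-ps shares 232 of the 894 windows of Ftl1 (26%), but none of those in the last 300 bases. Ftl1-ps2, with 25 shared windows (2.8%), lay between 14.9 and 36.5 CPM. Summed with Ftl1-ps1, Ftl1 in M0 DMEM WT came to 2127, 1722 and 2111 CPM. Fth-ps2 and Fth-ps3 share no window of that length with Fth1, and they reached at most 3.53 and 28.9 CPM. The origin of the 3 high pseudogene readings was not tested.

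Ncoa4, the ferritin receptor for autophagy, was a low transcript whose order turned with the medium. In DMEM the KO libraries were higher, with 14.6, 14.01 and 17.8 CPM against 8.46, 7.82 and 11.96 CPM in WT M0. In M2 they read 13.7, 15.5 and 13.4 CPM against 6.46, 6.22 and 5.90 CPM. In CM the KO libraries were lower, and the groups again did not overlap.

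The CM libraries of Ncoa4 read 3.25, 4.26 and 2.93 CPM in KO M0 and 4.28, 9.57 and 5.07 CPM in WT M0. In M2 they read 3.31, 4.52 and 3.54 CPM in KO and 6.54, 5.73 and 7.42 CPM in WT. From DMEM to CM the log2 fold change of Ncoa4 was -2.14 (SE 0.241) in KO M0 and -1.89 (SE 0.240) in KO M2, whereas in WT the values were -0.58 (SE 0.228) in M0 and 0.08 (SE 0.242) in M2, with overlap in both. The highest WT library in CM, M0 replicate 2, carries much of the M0 difference between genotypes in CM. The log2 fold change was -0.85 (SE 0.255) with it and -0.43 without it.

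Tfrc, the receptor that imports transferrin iron, varied 22.3-fold over the 24 libraries. Its M2 libraries in DMEM read 666, 678 and 676 CPM in WT and 483, 506 and 507 CPM in KO. Those in CM read 401, 462 and 477 CPM in WT and 40.5, 42.03 and 44.04 CPM in KO. The M2 KO libraries in CM thus lay within the range of the M0 libraries. The log2 fold change from DMEM to CM was -3.56 (SE 0.0915) in KO M2 and -0.59 (SE 0.0809) in WT M2, a difference of -2.97 (SE 0.119). Between genotypes in CM the log2 fold change of Tfrc in M2 was -3.40 (SE 0.0909), and in DMEM it was -0.43 (SE 0.0808). These M2 KO values rest on keeping batch 2 apart. With the 3 batch 2 libraries added under their labels, the log2 fold change of Tfrc with CM in KO M2 was -0.51. The CM response of KO minus that of WT was then 0.03 for Tfrc in M2. The same values were -0.71 and -0.76 for Steap3 and -0.98 and -1.12 for Ncoa4. From WT to KO in M2, Tfrc was then at -0.83 in CM and -0.86 in DMEM. A batch term in that fit gave Tfrc values of -2.05 (SE 1.01) for CM in KO M2 and -1.51 (SE 1.31) for the difference. From WT to KO in M2 it gave -2.38 (SE 1.05) in CM and -0.87 (SE 0.808) in DMEM.

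In M0 macrophages of batch 1 Tfrc moved in opposite directions in WT and KO. The WT libraries read 44.8, 50.6 and 49.8 CPM in DMEM and 72.3, 81.3 and 70.4 CPM in CM. The KO libraries read 76.3, 86.0 and 89.7 CPM in DMEM and 30.5, 31.4 and 35.3 CPM in CM. The log2 fold change from DMEM to CM was 0.63 (SE 0.0863) in WT and -1.38 (SE 0.0889) in KO, without overlap in either genotype among the batch 1 libraries. M0 DMEM WT replicate 4 of batch 2, which correlated best with its own group, read 76.5 CPM, inside the range of WT M0 in CM. With all 27 libraries the values were 0.46 in WT and -1.33 in KO. IL-4 went with higher Tfrc in DMEM, by 3.80 (SE 0.0919) in WT and 2.57 (SE 0.0868) in KO. In the order of the 8 group means, from M2 DMEM WT at 674 CPM to M0 CM KO at 32.4 CPM, M0 DMEM KO and M0 CM WT were the only neighbors that overlapped.

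Steap3, the endosomal ferrireductase that works beside the receptor, had the same opposite signs in M0 of batch 1 and hardly differed between media in WT M2. Its M0 libraries read 31.5, 26.97 and 25.4 CPM in WT and 43.8, 36.3 and 45.9 CPM in KO in DMEM. In CM they read 36.7, 35.96 and 33.96 CPM in WT and 20.2, 22.5 and 17.3 CPM in KO. WT was higher and KO lower in CM, by log2 fold changes of 0.35 (SE 0.123) and -1.07 (SE 0.126), in batch 1. The WT difference rests on keeping batch 2 apart. M0 DMEM WT replicate 4 of batch 2 read 50.5 CPM, above every WT library in CM, and with all 27 libraries the values were 0.10 in WT and -1.02 in KO. From WT to KO in M0 in DMEM the value went from 0.59 to 0.28.

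Steap3 in M2 macrophages in DMEM read 45.5, 37.95 and 45.8 CPM in WT and 72.8, 69.6 and 77.1 CPM in KO. In CM it read 41.5, 39.9 and 46.9 CPM in WT and 25.4, 23.2 and 30.9 CPM in KO. M2 KO cells in DMEM therefore had the highest group mean of Steap3, and those in CM a lower one, a log2 fold change of -1.47 (SE 0.122), against -0.01 (SE 0.120) in WT. The log2 fold change of Steap3 from WT to KO was 0.59 (SE 0.123) and 0.77 (SE 0.119) in DMEM and -0.83 (SE 0.126) and -0.69 (SE 0.123) in CM, for M0 and M2. Ncoa4 had the same signs, at 0.71 (SE 0.215) and 1.20 (SE 0.229) in DMEM and -0.85 and -0.78 in CM. With all 27 libraries the M2 values were smaller. They were 0.49 in DMEM and -0.27 in CM for Steap3, and 0.84 and -0.27 for Ncoa4.

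**Figure D3:**
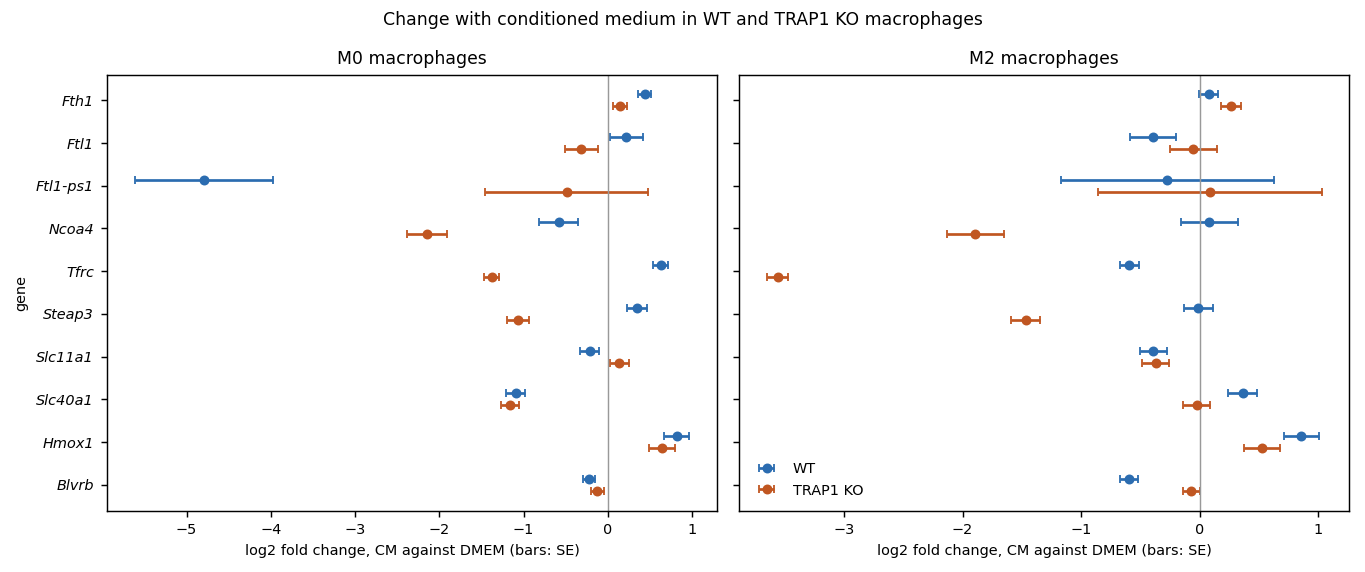
The x axis gives the fitted log2 fold change from DMEM to CM with its SE as bars, and the y axis the 10 genes, with WT in blue and TRAP1 KO in orange, for M0 (left) and M2 (right) macrophages. The KO points of Ncoa4, Tfrc and Steap3 lie far to the left of the WT points, at -3.56 for Tfrc in M2, while those of Hmox1 lie to the right of 0 in both genotypes.

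Slc11a1, the phagosomal metal transporter, had higher group means in KO than in WT in each condition. The log2 fold change was 0.22 (SE 0.115) in M0 in DMEM, 0.57 (SE 0.115) in M0 in CM, 0.25 (SE 0.113) in M2 in DMEM and 0.28 (SE 0.114) in M2 in CM, and the genotypes did not overlap in any of the 4. The libraries ranged from 75.5 to 225 CPM, lowest in M0 CM WT replicate 1 and highest in M2 DMEM KO. CM went with lower levels in M2 macrophages, by -0.39 (SE 0.114) in WT and -0.37 (SE 0.113) in KO. These values are of batch 1. M2 DMEM KO replicate 4 of batch 2 read 124.5 CPM for Slc11a1, below every WT library of M2 in DMEM. With all 27 libraries the value from WT to KO in M2 in DMEM was 0.08. Those for CM in M2 were then -0.34 in WT and -0.18 in KO.

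Slc40a1, the ferroportin gene, was higher in KO than in WT in every condition, and its largest difference was from M0 to M2 in WT. In M0 macrophages in DMEM the libraries read 96.7, 117 and 118 CPM in WT and 182, 185 and 187 CPM in KO. In CM they read 45.9, 58.3 and 51.4 CPM in WT and 70.5, 87.7 and 89.8 CPM in KO. CM thus went with lower Slc40a1 in M0 of both genotypes, by -1.09 (SE 0.111) in WT and -1.16 (SE 0.109) in KO.

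Slc40a1 in M2 macrophages in DMEM read 25.5, 23.7 and 29.8 CPM in WT and 75.9, 69.4 and 75.4 CPM in KO. In CM it read 31.2, 39.03 and 31.3 CPM in WT and 71.0, 74.0 and 71.8 CPM in KO. The lower level in CM was not seen in M2, where the log2 fold change was 0.36 (SE 0.120) in WT and -0.03 (SE 0.110) in KO. From WT to KO it was 0.74 (SE 0.108) and 0.67 (SE 0.111) in M0 in DMEM and CM, and 1.48 (SE 0.118) and 1.09 (SE 0.114) in M2. From M0 to M2 in DMEM it was -2.07 (SE 0.118) in WT and -1.33 (SE 0.110) in KO. Tfrc and Slc40a1, importer and exporter, therefore moved in opposite directions with IL-4. In KO M0 macrophages exposed to CM both were lower than in DMEM.

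Hmox1, which releases iron from heme, was higher in CM than in DMEM in both genotypes and both kinds of macrophage, without overlap in batch 1. In M0 it read 56.4, 77.8 and 80.8 CPM in DMEM and 97.3, 152 and 129 CPM in CM in WT, and 60.02, 76.97 and 82.98 CPM against 101, 114 and 128 CPM in KO. In M2 it read 104, 107 and 121 CPM in DMEM and 202, 194 and 206 CPM in CM in WT, and 132, 143 and 137 CPM against 205, 166 and 223 CPM in KO. Among the batch 1 libraries, Hmox1 was the only gene of the 10 that was higher in CM without overlap in all 4 settings. Its log2 fold changes with CM were 0.82 (SE 0.152) in WT M0, 0.64 (SE 0.153) in KO M0, 0.86 (SE 0.151) in WT M2 and 0.53 (SE 0.149) in KO M2. The KO M2 difference rests on keeping batch 2 apart. M2 CM KO replicate 4 of batch 2 read 124 CPM for Hmox1, below every batch 1 library of M2 DMEM KO. M2 DMEM KO replicate 4 read 159 CPM, and with all 27 libraries the KO M2 value was 0.35. The genotypes overlapped except in M2 in DMEM, where KO was higher by 0.31 (SE 0.151). Hmox1 was also higher in M2 than in M0 in DMEM, by 0.63 (SE 0.153) in WT and 0.91 (SE 0.153) in KO.

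Blvrb, a reductase of biliverdin isomers and flavins, was the steadiest of the 10, with a 1.69-fold range from 195 to 330 CPM. It stood apart in M2 DMEM WT, where it read 315, 316 and 330 CPM, while the other 21 libraries lay at or below 257 CPM. Against that group the log2 fold change was -0.59 (SE 0.0748) for CM and -0.48 (SE 0.0748) for the KO. In KO cells Blvrb hardly differed between M2 and M0 in DMEM, at -0.10 (SE 0.0747), and in WT the value was 0.39 (SE 0.0745).

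**Figure D4:**
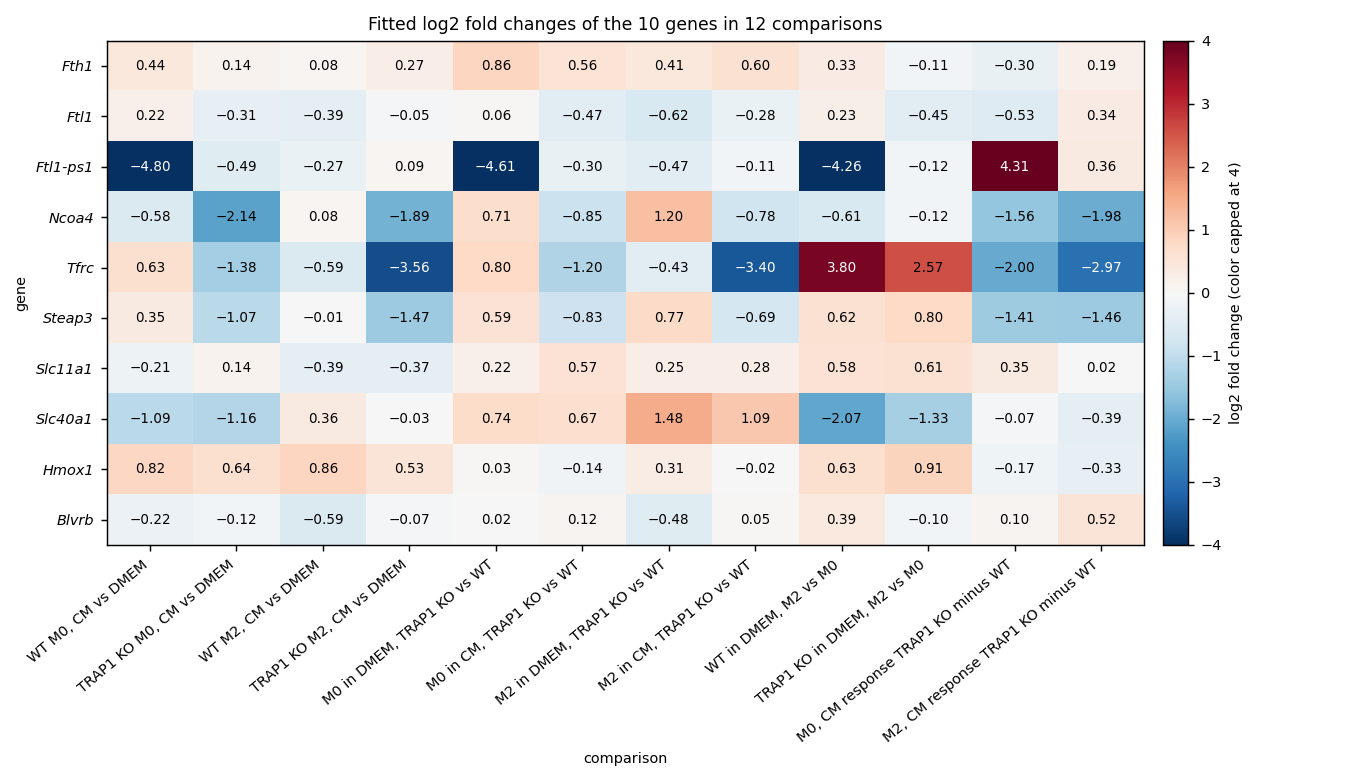
Rows are the 10 genes and columns the 12 comparisons, and each cell prints the fitted log2 fold change, in red where the first-named group was higher and in blue where it was lower. The 2 columns at the right give the CM response of TRAP1 KO minus that of WT, which was between -1.41 and -2.97 for Ncoa4, Tfrc and Steap3 in M0 and M2.

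For orientation, the number of the 10 genes past an adjusted p of 0.05 in edgeR is given beside the share of all 13614 genes tested that passed in the same direction. All 10 passed the filter on low counts. Since these contrasts served to choose the genes, nothing is read from these counts. For CM against DMEM, 7 passed in WT M0 (background 21.2%), with 4 higher (11.3%) and 3 lower (9.96%), and 5 in KO M0 (32.9%), with 1 higher (14.8%) and 4 lower (18.1%). In M2 they were 5 in WT (24.5%), with 2 higher (11.2%) and 3 lower (13.3%), and 6 in KO (36.8%), with 2 higher (16.7%) and 4 lower (20.2%). For KO against WT, 6 passed in M0 in DMEM (16.6%), with 5 higher (8.64%) and 1 lower (7.97%), and 6 in M0 in CM (38.2%), with 3 higher (19.1%) and 3 lower (19.2%). In M2 they were 7 in DMEM (16.4%), with 4 higher (8.56%) and 3 lower (7.87%), and 5 in CM (34%), with 2 higher (17.2%) and 3 lower (16.8%). For M2 against M0 in DMEM, 9 passed in WT (37.2%), with 6 higher (19.1%) and 3 lower (18.1%), and 5 in KO (28.5%), with 4 higher (15.6%) and 1 lower (12.9%). For the difference between the CM responses of the genotypes, 4 passed in M0 (19.7%), with 1 higher (8.17%) and 3 lower (11.5%), and 4 in M2 (20.2%), with 1 higher (9.36%) and 3 lower (10.8%). The median log2 fold change of the 10 genes lay between -0.40 (CM in KO M0) and 0.40 (KO in M0 in DMEM), and that of all genes between -0.04 and 0.05 in the 12 comparisons.

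Over the 24 libraries, the log2 CPM of Tfrc and Steap3 correlated at 0.800, of Ncoa4 and Steap3 at 0.688 and of Tfrc and Slc40a1 at -0.621 (Pearson's r). The libraries share 8 groups, so these values describe the groups and no p is given. Among 8205 genes with a mean of at least 10 CPM, those most like Tfrc were Gask1b (0.965), Gusb (0.963) and Stt3b (0.959). Those most like Slc40a1 were Hacd4 (0.969), Tifa (0.955) and Rere (0.934), and those most like Hmox1 were Tnfrsf26 (0.945), C2cd2l (0.920) and S100a11 (0.915). For Ftl1 the highest values were lower, with Rps2 (0.796), Rpl41 (0.778) and Ndufb7 (0.768).

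A further 46 iron and heme genes were tested in the same fit, of which 36 passed the filter on low counts. The other 10, among them Hamp, Heph, Tfr2, Ftmt and Lcn2, reached at most 12 counts in any library. Genes of this list are named where they passed the test, had a group mean of at least 10 CPM and did not overlap, up to 4 a comparison. The adjusted p-values are from edgeR's quasi-likelihood test over all genes.

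In WT M0, 10 of the 36 passed for CM (27.8%, against 21.2% of all genes), with 5 higher and 5 lower. Slc39a14 and Slc39a8, plasma membrane carriers of iron and zinc, rose by 0.88 (SE 0.156, adjusted p = 0.000166, edgeR) and 0.78 (SE 0.173, adjusted p = 0.00166, edgeR). Bach1, a repressor of Hmox1 that heme inactivates, fell by 0.53 (SE 0.0918, adjusted p = 0.000112, edgeR). In KO M0, 13 passed (36.1%, against 32.9% of all genes), with 6 higher and 7 lower. Slc39a14 rose there from 5.75 to 24.5 CPM, by 2.08 (SE 0.168, adjusted p = 1.04e-10, edgeR), and Cp, the ferroxidase ceruloplasmin that works with ferroportin, fell from 36.1 to 1.86 CPM, by 4.26 (SE 0.238, adjusted p = 6.77e-14, edgeR).

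In WT M2, 11 of the 36 passed (30.6%, against 24.5% of all genes), with 4 higher and 7 lower, and in KO M2 19 passed (52.8%, against 36.8%), with 6 higher and 13 lower. Slc25a37, the mitochondrial iron importer mitoferrin 1, rose by 0.93 (SE 0.112, adjusted p = 3.9e-07, edgeR) in WT M2 and by 1.21 (SE 0.106, adjusted p = 4.76e-10, edgeR) in KO M2. Alas1, the first enzyme of heme synthesis, fell by 0.55 (SE 0.118, adjusted p = 0.000898, edgeR) in WT M2 and by 1.68 (SE 0.121, adjusted p = 9.63e-12, edgeR) in KO M2, where its mean went from 431 to 134 CPM. The difference between these Alas1 responses was -1.14 (SE 0.167, adjusted p = 1.07e-05, edgeR). None of these 5 calls held with all 27 libraries. Alas1 was then at -0.49 in WT M2 (adjusted p = 0.577, edgeR) and -0.88 in KO M2 (adjusted p = 0.188, edgeR), with a difference of -0.39 (adjusted p = 0.833, edgeR). Slc25a37 was at 0.98 in WT M2 (adjusted p = 0.245, edgeR) and -0.13 in KO M2 (adjusted p = 0.889, edgeR). The WT M2 groups hold no batch 2 library. Their values changed little in that shared fit, while the SE rose to 0.454 for Alas1 and 0.491 for Slc25a37.

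**Figure D5:**
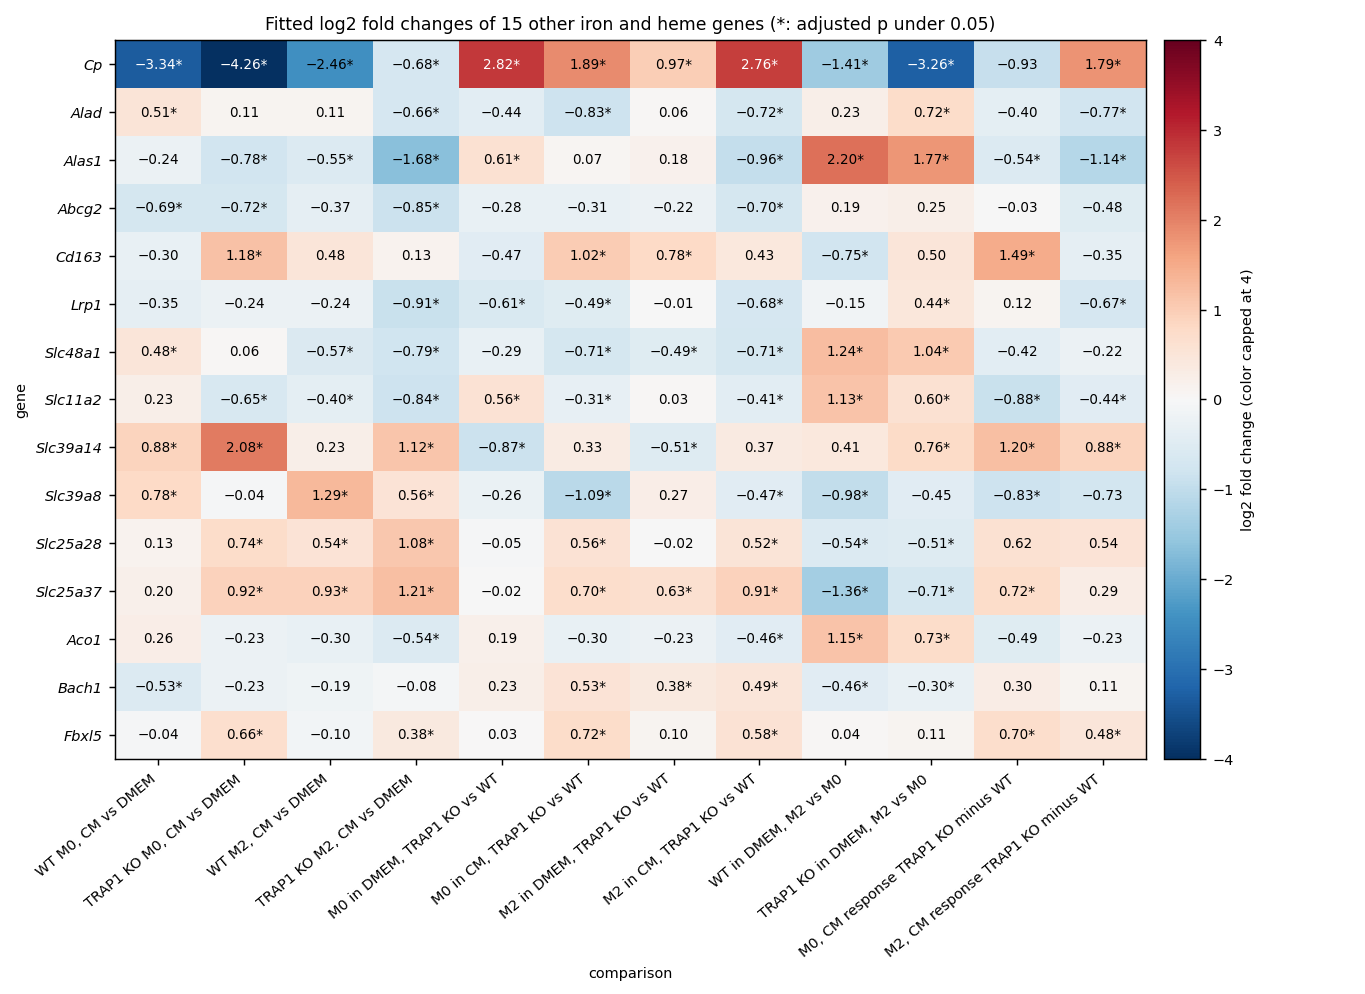
Rows are 15 named iron and heme genes outside the set of 10 and columns the 12 comparisons, with the fitted log2 fold change in each cell and an asterisk where the adjusted p of edgeR was under 0.05. Cp was higher in TRAP1 KO in all 4 genotype columns, at 2.82 in M0 in DMEM, and Alas1 was higher in M2 than in M0, at 2.20 in WT.

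Between genotypes in DMEM, 7 of the 36 passed in M0 (19.4%, against 16.6% of all genes) and 7 in M2 (19.4%, against 16.4%). In CM, 19 passed in M0 (52.8%, against 38.2% of all genes) and 19 in M2 (52.8%, against 34%), so the share of all genes was also larger in CM. In M0 in DMEM, Cp rose from 5.11 CPM in WT to 36.1 CPM in KO, by 2.82 (SE 0.209, adjusted p = 1.62e-10, edgeR), in the condition in which Slc40a1 was also at its highest. Slc39a14 was lower in KO by -0.87 (SE 0.177, adjusted p = 0.000721, edgeR). In M0 in CM, Fbxl5, which marks iron regulatory protein 2 for degradation, was higher in KO by 0.72 (SE 0.105, adjusted p = 4.04e-06, edgeR) and Slc39a8 lower by -1.09 (SE 0.177, adjusted p = 1.88e-05, edgeR). Slc48a1, a heme transporter of the phagolysosome, was lower in KO M2 by -0.49 (SE 0.118, adjusted p = 0.00446, edgeR) in DMEM and -0.71 (SE 0.119, adjusted p = 3.29e-05, edgeR) in CM. With all 27 libraries the value in CM was -0.48 and no longer passed (adjusted p = 0.112, edgeR).

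From M0 to M2 in DMEM, 17 of the 36 passed in WT (47.2%, against 37.2% of all genes), with 9 higher and 8 lower, and 16 in KO (44.4%, against 28.5%), with 9 higher and 7 lower. Alas1 rose by 2.20 (SE 0.124, adjusted p = 7.6e-14, edgeR) in WT and 1.77 (SE 0.122, adjusted p = 6.41e-12, edgeR) in KO, and Slc48a1 by 1.24 (SE 0.120, adjusted p = 3.51e-09, edgeR) and 1.04 (SE 0.120, adjusted p = 1.17e-07, edgeR). Aco1, which encodes iron regulatory protein 1, rose by 1.15 (SE 0.131, adjusted p = 6.2e-08, edgeR) and 0.73 (SE 0.131, adjusted p = 8.01e-05, edgeR). With all 27 libraries the Aco1 value in KO was 0.57 and no longer passed (adjusted p = 0.0617, edgeR).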

How the data were processed

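Counts per gene of 27 libraries of QuantSeq 3′ RNA-seq (75 bp single reads) were used as deposited. The authors trimmed reads with Trimmomatic, mapped them with HISAT2, removed those with a mapping quality under 20 and made the counts with featureCounts. Since the labels and the methods name different genome builds, sequences were read from GENCODE M21 transcripts (GRCm38) and no coordinate of the files was used. Another 5 of the table's 32 columns carry names found in no label and stayed out.

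The main values come from edgeR 4.0.16 (with limma 3.58.1 under R 4.3.3) on the 24 batch 1 libraries. Low genes were dropped by filterByExpr, TMM factors were applied, and the quasi-likelihood model was robust, with 1 mean per group and 16 residual degrees of freedom. P-values were adjusted by Benjamini-Hochberg over 13614 genes. The SE is the size of the log2 fold change divided by the root of F, and log2 CPM used a prior count of 2. The code was tested on simulated data. Chi-square per degree of freedom between replicates ran from 2.11 to 37.4 over 24 pairs, more than counting noise gives. In the M0 groups and in M2 CM WT, pairs that hold replicate 1 ran from 16.04 to 37.4. Replicates 2 and 3 of those groups ran from 2.11 to 3.42. The depth behind each value limits its precision. Sequences were aligned with Biopython 1.88 under Python 3.11.15.

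The 10 genes, the list of 46 and the tests were chosen with earlier results of these data known. Genes of the list were named, up to 4 a comparison by size of change, where the adjusted p was under 0.05, a group mean reached 10 CPM and the groups did not overlap. The 3 genes most like a gene were those with the highest r. Ferritin pseudogenes other than Ftl1-ps1 were picked with their values in view. Alternatives tried were scaling by median of ratios, DESeq2 1.42.0, no filter, all 27 libraries with and without a batch term, a replicate block, the compared groups alone, each library left out, and summed ferritin rows.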

Additional observations from a re-analysis of the deposited data

Results flagged for a closer look

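Dixon's 95% limit was applied in the 3 groups with 4 libraries, 1 of them from batch 2. Among 30 values of the 10 genes, 10 had an end library farther from the others than the limit allows. Batch 2 gave 8 of these 10. A single odd library can flag several genes, and the genes were chosen by their levels in these data. The count is therefore a description, and no chance rate is set beside it. Replicate 4 of the libraries labelled M2 CM KO read 913.7 CPM for Tfrc (others 40.4 to 43.9), 12980 CPM for Fth1 (others 19380 to 20480), 10.9 CPM for Ncoa4 (others 3.304 to 4.497), 93.96 CPM for Slc40a1 (others 70.97 to 73.6) and 49 CPM for Ftl1-ps1 (others 6.19 to 8.43). The library labelled M2 DMEM KO replicate 4 read 12.54 CPM for Tfrc (others 474 to 498), 3.063 CPM for Ncoa4 and 26.42 CPM for Steap3. These are the libraries that correlated negatively with their own groups. In M0 DMEM WT, replicate 1 of batch 1 read 9038 CPM for Fth1 and 97.33 CPM for Slc40a1, below the other 3 libraries. Levels here are scaled over 27 libraries.

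The CM response differed between TRAP1 KO and WT in M0 macrophages, by the interaction term of edgeR, for Cd163 by 1.49 (SE 0.315, adjusted p = 0.000931, edgeR), Slc39a14 by 1.20 (SE 0.230, adjusted p = 0.000295, edgeR), Slc11a2 by -0.88 (SE 0.151, adjusted p = 8.42e-05, edgeR) and Slc39a8 by -0.83 (SE 0.253, adjusted p = 0.0204, edgeR). In M2 macrophages it differed for Alas1 by -1.14, Slc39a14 by 0.88 (adjusted p = 0.00522, edgeR), Alad by -0.77 (adjusted p = 0.0151, edgeR) and Lrp1 by -0.67 (adjusted p = 0.0173, edgeR). With all 27 libraries none of these 8 differences passed. They were then 1.29, 1.28, -0.84 and -0.77 in M0 (adjusted p from 0.0605 to 0.134, edgeR) and -0.39, 0.23, -0.53 and -0.18 in M2 (adjusted p from 0.33 to 0.868, edgeR). Tfrc and Steap3 moved in opposite directions in WT and KO M0 macrophages of batch 1, with differences of -2.00 and -1.41, given without a test because these values chose the genes. With all 27 libraries the differences were -1.78 and -1.12 and the WT values 0.46 and 0.10, and M0 DMEM WT replicate 4 of batch 2 read 76.5 CPM for Tfrc and 50.5 CPM for Steap3, within and above the WT libraries in CM.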

How the results depend on the processing

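Of the 46 genes tested (10 and 36 together), the number past the threshold stayed within 1.5 times of its main value with each library left out in turn and with other scaling, DESeq2, no filter and the replicate block. With single libraries left out, the counts ran from 12 to 17, 16 to 19, 11 to 15 and 20 to 24 for CM in WT M0, KO M0, WT M2 and KO M2 (main 17, 18, 16 and 25). They ran from 12 to 13, 23 to 26, 10 to 14 and 20 to 25 for the KO in M0 in DMEM and CM and in M2 in DMEM and CM (main 13, 25, 14 and 24), from 19 to 26 and 16 to 20 for M2 in WT and KO (main 26 and 21), and from 12 to 15 and 11 to 14 for the differences in M0 and M2 (main 14 and 13). The counts fell with the 3 batch 2 libraries added. In the same order they were 8, 11, 5 and 3 for CM, 7, 13, 7 and 8 for the KO, 11 for M2 in KO, and 1 and 0 for the differences by edgeR (for M2, 8 at an unadjusted p under 0.05, and 14 by DESeq2 on 24 libraries). With a batch term they were 10, 11, 6 and 5, then 6, 13, 8 and 9, then 11, then 3 and 1. The fold change turned for Fth1 with CM in KO M2 (-0.014 with 27 libraries, -0.00754 with the batch term), for Slc25a37 in that comparison (-0.13) and for the Tfrc difference in M2 (0.031). With the batch term these Slc25a37 and Tfrc values were 0.27 and -1.51. Fitting only the groups compared gave 11 for CM in WT M0. Leaving out M0 DMEM WT replicates 1 and 3, chosen after seeing the data, gave 8 for CM in WT M0 and 14 for M2 in WT, and turned Ftl1-ps1 to 0.10 for M2 in WT and -0.047 for the M0 difference. With those 2 left out, Slc39a14 and Slc39a8 no longer passed for CM in WT M0 (adjusted p = 0.05264 and 0.106, edgeR). In the main fit between 16.4% and 38.2% of all genes passed, and this share was not counted under the alternatives. The 46 also include the 10 genes chosen on these contrasts. The counts therefore show nothing particular to iron genes, and the cause of these changes was not tested.

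Leaving out 1 library ended the threshold call of 12 combinations of gene and comparison among the 10 genes. Steap3 and Blvrb for CM in WT M0, Slc40a1 for CM in WT M2 (0.25 to 0.39), Slc11a1 for CM in both M2, Fth1 for CM in KO M2, Ftl1 for the KO in M2 in DMEM, Ftl1-ps1 for the M0 difference and 4 values of Ncoa4 made up the 12. Blocking by replicate number gave 19, 19, 16 and 25 for CM, and 1 named gene no longer passed (Slc39a14 for the KO in M2 in DMEM, -0.44, adjusted p = 0.132, edgeR). The numbers share no stated source. Deviations of 77 same-numbered pairs correlated at 0.107 on average (-0.214 to 0.521) and those of 175 other pairs at -0.0451, and 14 of 24 libraries correlated best with their own number. In the M0 groups and in M2 CM WT, the replicate 1 libraries correlated with each other at 0.377 to 0.521. The source of this shared deviation was not tested. Transcripts with few reads, such as Ncoa4, limit what depth can show.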
